A study of Homo sapiens with 6 samples.

Results

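Oxidative phosphorylation, the chain of protein complexes that oxidises NADH and succinate and makes ATP in mitochondria, was followed through the transcripts of 102 genes in H1, a line of human embryonic stem cells. The genes were taken by symbol from a table of 16199 genes: nuclear symbols that start with NDUFA, NDUFB, NDUFC, NDUFS, NDUFV, SDH, UQCR, ATP5 or COX4 to COX8, and mitochondrial ones that start with MT-ND, MT-CO, MT-CYB or MT-ATP, without 13 pseudogenes. Of the 102 genes, 89 are nuclear and 13 are the protein-coding genes of the mitochondrial genome. The nuclear genes comprise 33 of complex I, 4 of complex II, 8 of complex III, 15 of complex IV, 17 of complex V and 12 assembly factors. The mitochondrial genes comprise 7 of complex I, 1 of complex III, 3 of complex IV and 2 of complex V. All 102 passed the filter on low counts, since that filter removed 0 of the 16199 genes, and 13 further genes with such symbols, among them NDUFS3, UQCRC2 and ATP5IF1, were not analysed here.

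Libraries prepared from total RNA were sequenced for 6 samples, 2 of each genotype. The genotypes were cells edited with CRISPR-Cas9 to be homozygous for the DICER1 change S1344L, cells hemizygous for it, and wild-type cells. DICER1 is the enzyme that cuts mature microRNAs from their hairpin precursors. The other allele of the hemizygous cells is not described by the labels, nor is the number of clones behind an edited genotype or whether samples 1 and 2 of a genotype are separate cultures, so the p-values rest on a spread among samples that could be purely technical. Libraries are called homozygous 1 and 2, hemizygous 1 and 2 and wild type 1 and 2 by the replicate number of the title, whose meaning the labels leave unstated.

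Complexes I to IV pass electrons to oxygen and, except complex II, pump protons across the inner mitochondrial membrane, and complex V, the ATP synthase, uses the returning protons to make ATP. Complex II is encoded wholly in the nucleus, whereas complexes I, III, IV and V combine nuclear subunits, imported from the cytosol, with subunits translated inside the organelle. The mitochondrial genome is transcribed as long polycistronic RNAs that are cut into single mRNAs, rRNAs and tRNAs, while each nuclear gene has its own promoter. Pluripotent stem cells are known for a high rate of glycolysis, with a functioning respiratory chain beside it.

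The listed counts summed to between 38164848 and 52924532 per library. Counts are also given as CPM, counts per 1000000 of the library size after TMM scaling, which corrects for differences in composition. The 12 pluripotency markers were all measured and made up 1.07 to 1.20% of the counts of a library, against 0.0621 to 0.0846% for 5 measured fibroblast genes and 0.00199 to 0.00318% for 3 measured muscle genes, muscle being rich in mitochondria. DICER1 itself had 129 and 118 CPM in homozygous cells and 118 and 96.4 CPM in hemizygous cells, against 169 and 126 CPM in wild-type cells, and the S1344L change cannot be read from counts.

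Nuclear genes of the chain are known for short promoter elements bound by NRF1, by GABP (an ETS factor), by YY1 and by ERR receptors. Promoter windows from 250 bases before to 50 after the start site were taken from RefSeq (GRCh38.p14) for 74 of the 89 nuclear genes and for 10755 other genes of the table, and searched on both strands. The NRF1 element, whose letters are the capitals in the ATP5F1C and NDUFB4 stretches, stood in 5 of the 74 windows (6.76%) and in 2.23% of the others, and the ETS element CCGGAAGT in 11 (14.9%) and 8.20%. The YY1 element AAGATGGCG was in 6 windows (8.11%), against 3.76% of the others, the ERR element TCAAGGTCA in 1, that of SDHD (1.35%), against 0.167%, and the SP-type GC box GGGCGG in 44 (59.5%), against 70.6%. These are matches of letters and not sites shown to be bound. The 5 stretches printed here, each of 120 bases upstream of a start site, show how the NRF1 and ETS elements sit in promoters of complexes I to V. NRF1 and ETS matches are in capitals.
ATP5F1C, chr10:7788057-7788176, plus strand: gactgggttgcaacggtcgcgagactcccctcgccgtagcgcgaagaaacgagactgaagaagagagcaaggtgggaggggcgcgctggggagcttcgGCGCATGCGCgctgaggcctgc
NDUFB4, chr3:120596122-120596241, plus strand: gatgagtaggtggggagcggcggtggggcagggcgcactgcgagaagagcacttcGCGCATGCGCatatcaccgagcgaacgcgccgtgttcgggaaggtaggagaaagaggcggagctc
SDHD, chr11:112086708-112086827, plus strand: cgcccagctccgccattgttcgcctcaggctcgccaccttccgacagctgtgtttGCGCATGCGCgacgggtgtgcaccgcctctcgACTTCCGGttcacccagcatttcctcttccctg
COX5B, chr2:97645942-97646061, plus strand: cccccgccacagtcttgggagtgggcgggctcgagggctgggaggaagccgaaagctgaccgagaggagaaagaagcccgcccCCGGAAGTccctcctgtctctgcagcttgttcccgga
UQCRH, chr1:46303578-46303697, plus strand: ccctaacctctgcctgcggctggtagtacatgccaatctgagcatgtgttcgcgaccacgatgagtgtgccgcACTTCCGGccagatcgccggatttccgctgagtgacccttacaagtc

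Transcripts of the 13 mitochondrial genes took 5.66 and 6.87% of the counts in homozygous cells and 6.92 and 5.81% in hemizygous cells, against 6.72 and 5.78% in wild-type cells. The genotypes overlapped: homozygous 2, hemizygous 1 and wild type 1 were high, and the other 3 libraries lay together about 1 percentage point lower. Means were 6.26 ± 0.856% in homozygous and 6.37 ± 0.780% in hemizygous cells, against 6.25 ± 0.660% in wild-type cells (SD, n = 2 each). The nuclear genes of the chain, nearly 7 times as many, took under 1% of the counts. Their share was 0.751 and 0.880% in homozygous cells and 0.687 and 0.819% in hemizygous cells, against 0.755 and 0.803% in wild-type cells. In every genotype library 2 was the higher. Counting error was far smaller than these gaps, since the 95% Wilson interval of the mitochondrial share was at most 0.0158 percentage points wide. That interval covers counting error only, because reads without molecular identifiers are not independent molecules.

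**Figure D1:**
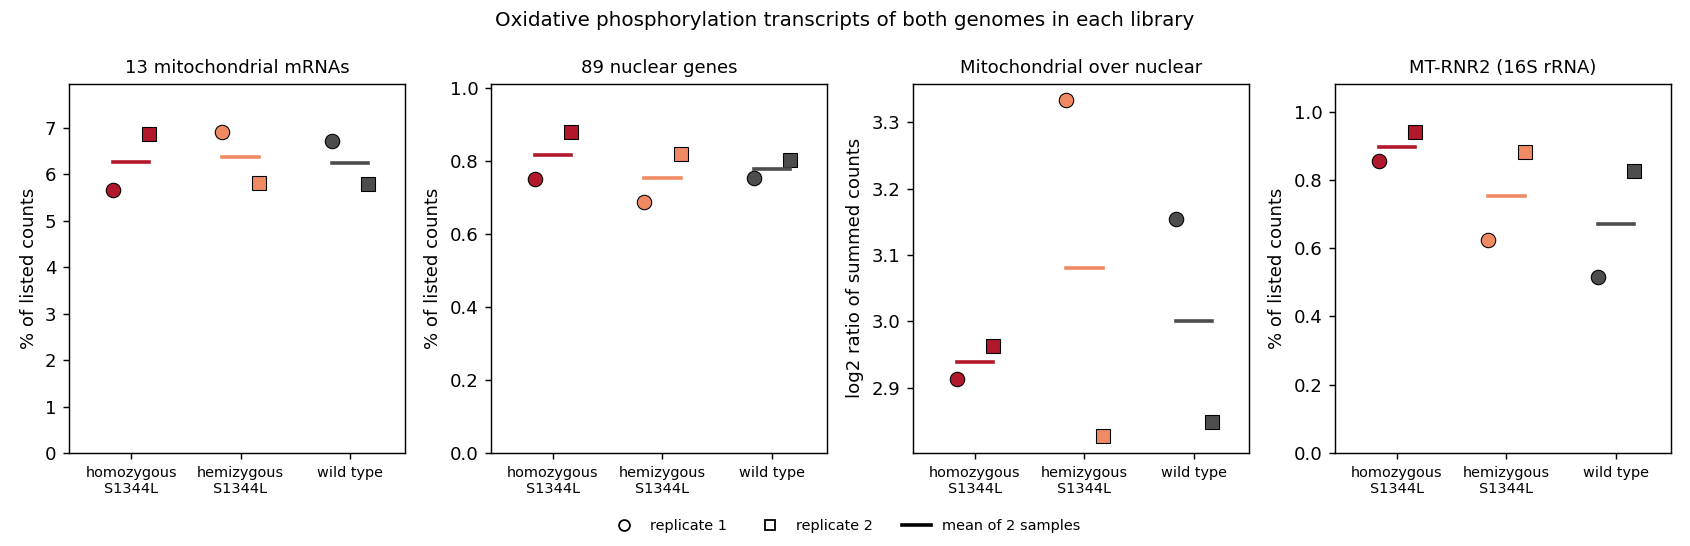
Share of listed counts in each library (%) for the 13 mitochondrial mRNAs and the 89 nuclear genes, the log2 ratio of these sums, and the share of MT-RNR2, the mitochondrial 16S rRNA. Circles are replicate 1, squares replicate 2 and bars the mean of 2 samples; the ratio was high only in hemizygous 1 (3.33) and wild type 1 (3.15).

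Set against each other within a library, the genomes gave a log2 ratio of mitochondrial to nuclear counts of 2.91 and 2.96 in homozygous cells and 3.33 and 2.83 in hemizygous cells, against 3.15 and 2.85 in wild-type cells. Thus 4 of the 6 libraries held 7.10 to 7.80 mitochondrial counts per nuclear count, and hemizygous 1 and wild type 1 stood above them at 10.1 and 8.90. The difference of genotype means was -0.06 for homozygous against wild type, 0.08 for hemizygous against wild type and -0.14 for homozygous against hemizygous. The SD between the 2 libraries was 0.035 in homozygous, 0.36 in hemizygous and 0.22 in wild-type cells. Each difference was smaller than the larger SD of its 2 genotypes, though -0.06 exceeded the homozygous SD in size. Homozygous cells were the only genotype whose 2 libraries had nearly the same ratio, although both of their sums were higher in replicate 2. By complex, the ratio was widest for complex IV, 18.5 and 19.3 in homozygous cells and 26.2 and 17.6 in hemizygous cells, against 24.3 and 18.6 in wild-type cells. It was smallest for complex V, at 1.35 to 1.85 over the 6 libraries, where the mitochondrial genome carries MT-ATP6 and MT-ATP8. Per kilobase of exon, the median mitochondrial gene had 3574 CPM and the median nuclear gene 23.2 CPM. The length used merged all annotated exons of a gene. It was 10908 bp for ATP5F1A, whose longest coding length was 1659 nt, and 1542 bp for MT-CO1, whose coding length was 1542 nt. The gap between the medians therefore depends on the lengths used.

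Between the libraries of hemizygous and wild-type cells, the shares of the mitochondrial rRNAs ran opposite to those of the mRNAs cut from the same precursors. In homozygous cells the shares of rRNAs and mRNAs were all higher in library 2. How fully the libraries captured the rRNAs was not tested, so these shares are not levels of the rRNA. MT-RNR2, the 16S rRNA, had 0.854 and 0.941% of the counts in homozygous cells and 0.623 and 0.881% in hemizygous cells, against 0.516 and 0.826% in wild-type cells. Hemizygous 1 and wild type 1, the libraries highest in the ratio of mRNAs, were the lowest in 16S rRNA. MT-RNR1, the 12S rRNA, was also lower in replicate 1 of every genotype, at 0.0795 and 0.103% in homozygous and 0.0790 and 0.0913% in hemizygous cells, against 0.0836 and 0.102% in wild-type cells. Nuclear copies of mitochondrial mRNAs, 5 pseudogenes in the table, took 0.0882 to 0.109% of the counts and were high in the libraries where the mRNAs were high.

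Within the mitochondrial mRNA pool the same gene led in every library. MT-CO1, the catalytic subunit of cytochrome c oxidase, had 24.1 and 26.2% of the pool in homozygous cells and 25.7 and 26.0% in hemizygous cells, against 27.7 and 26.7% in wild-type cells. MT-ND4, a proton-pumping subunit of complex I, took 14.9 to 16.8% over the 6 libraries, and MT-CO2 and MT-CO3 took 12.2 to 15.4% and 12.2 to 14.2%. The shares with the widest range relative to their lowest value were those of MT-ND5 and MT-ND1. MT-ND5 took 6.60 and 5.05% in homozygous cells and 5.36 and 5.72% in hemizygous cells, against 4.65 and 6.01% in wild-type cells, so that the genotypes overlapped. MT-ND1 took 3.57 and 2.52% in homozygous cells and 3.21 and 3.18% in hemizygous cells, against 2.78 and 3.33% in wild-type cells. For both, homozygous 1 was the highest library and not the lowest, although the pool as a whole was smallest there.

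MT-ND6, a complex I subunit and the only mRNA of the light strand, was the 1 mitochondrial gene above both wild-type libraries in both edited genotypes. It had 596 and 724 CPM in homozygous and 616 and 651 CPM in hemizygous cells, against 582 and 486 CPM in wild-type cells, with log2 fold changes of 0.31 ± 0.16 (SE) and 0.25 ± 0.16 and adjusted p-values of 1.00 in edgeR's quasi-likelihood test. Of the 13 mitochondrial genes, 2 (15.4%) lay above both wild-type libraries in homozygous cells, where 14.2% of all genes did. In hemizygous cells 1 of the 13 (7.69%) did, where 8.13% of all genes did. How fully the libraries captured MT-ND6 was not tested. MT-ND6 lies next to MT-ND5 on the other strand, with 0 bases of overlap in the annotation. The libraries do not mark strand, so reads from the opposite strand over MT-ND6 cannot be told apart from its own. MT-ATP6 and MT-ATP8, and MT-ND4 and MT-ND4L, overlap on one strand and share mRNAs, so counts in their overlaps cannot be told apart. MT-CYB, the cytochrome b of complex III, had 4065 and 4066 CPM in homozygous and 4908 and 3716 CPM in hemizygous cells, against 4167 and 3590 CPM in wild-type cells. Only hemizygous 1 stood out.

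The first question, whether homozygous S1344L cells differ from wild type in the transcripts of the chain, gave no called gene: edgeR's quasi-likelihood test with Benjamini-Hochberg adjustment called 0 of the 102 genes, with 0% called over all 16199 genes. Before adjustment, p was under 0.05 for 1 of the 102 (NDUFS1) and for 435 of all genes. The limma-voom fit also called 0 of the 102, with 0% called over all genes. DESeq2 called NDUFS1 alone, 1 of the 102 where it called 0.0617% of all genes. When replicate number was added as a block, DESeq2 again called NDUFS1 alone among the 102, where 0.921% of the genes it tested were called, and edgeR called 0 (0%). The median log2 fold change was 0.092 over the nuclear genes and 0.0063 over the mitochondrial genes, against -0.0034 over all genes. Above 0 lay 68 of 89 nuclear and 7 of 13 mitochondrial genes. Without homozygous 2 the nuclear median was -0.026, and without homozygous 1 it was 0.19, so its sign depended on 1 library.

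Both homozygous libraries lay above both wild-type libraries for 16 of the 102 genes (15.7%), where 14.2% of all genes did so, and below them for 8 (7.84%), where 13.6% did. The 16 held 4 of the 17 nuclear genes of the ATP synthase (23.5%), and the 8 held 1. Among the 4 was ATP5PD of the peripheral stalk, with 172 and 189 CPM in homozygous cells, against 132 and 158 CPM in wild-type cells. Its log2 fold change was 0.31 ± 0.19 (SE, adjusted p = 1.00 in edgeR's quasi-likelihood test). The 8 held UQCRFS1, the Rieske iron-sulfur protein of complex III, with 102 and 105 CPM in homozygous cells, against 116 and 113 CPM in wild-type cells.

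Hemizygous cells gave the same answer against wild type: 0 of the 102 genes called by edgeR, where 0% of all genes were called, with 1 of the 102 (NDUFS1 again) and 141 of all genes below 0.05 before adjustment. The limma-voom fit called 0 of the 102 (0% of all genes) and DESeq2 also 0, where it called 0.0432% of all genes. With the replicate block, 0 of the 102 were called by edgeR (0.00617% of all genes) and by DESeq2 (0.142%). The medians were -0.063 for nuclear and 0.060 for mitochondrial genes, against -0.0026 over all genes, with 19 of 89 and 9 of 13 above 0. Without hemizygous 1 the nuclear median was 0.054 and the mitochondrial median -0.071, on the other side of 0 for both genomes. Both hemizygous libraries lay above both wild-type ones for 4 genes (3.92%), where 8.13% of all genes did, and below them for 15 (14.7%), where 9.21% did. All 15 were nuclear, as are 89 of the 102 genes. Of the 33 nuclear genes of complex I, 8 (24.2%) were among the 15 and 2 (6.06%) among the 4 above. A difference between complexes was not tested. UQCRFS1 was among the 15 with 107 and 97.4 CPM in hemizygous cells, against 116 and 113 CPM in wild-type cells.

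Homozygous against hemizygous cells, the comparison of the edited genotypes, had 0 of the 102 genes called by edgeR (0% of all genes), by limma-voom (0%) and by DESeq2 (0.0617%). With the replicate block, edgeR called 0 (0.00617% of all genes) and DESeq2 also 0 (0.148%). None of the 102 was at an unadjusted p under 0.05 in edgeR, where 124 of all genes were. The nuclear median was 0.13 with 75 of 89 genes above 0, and the mitochondrial median -0.013 with 6 of 13, against -0.00035 over all genes. For 12 genes (11.8%) both homozygous libraries were above both hemizygous ones, where 11% of all genes were, and for 1 gene, NDUFS1, they were below (0.980%), where 10.4% were. Without homozygous 2 the nuclear median was 0.0015 and without hemizygous 1 it was 0.014, so the positive median rested on these libraries. The comparisons share libraries in pairs, so their medians are not independent of each other.

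**Figure D2:**
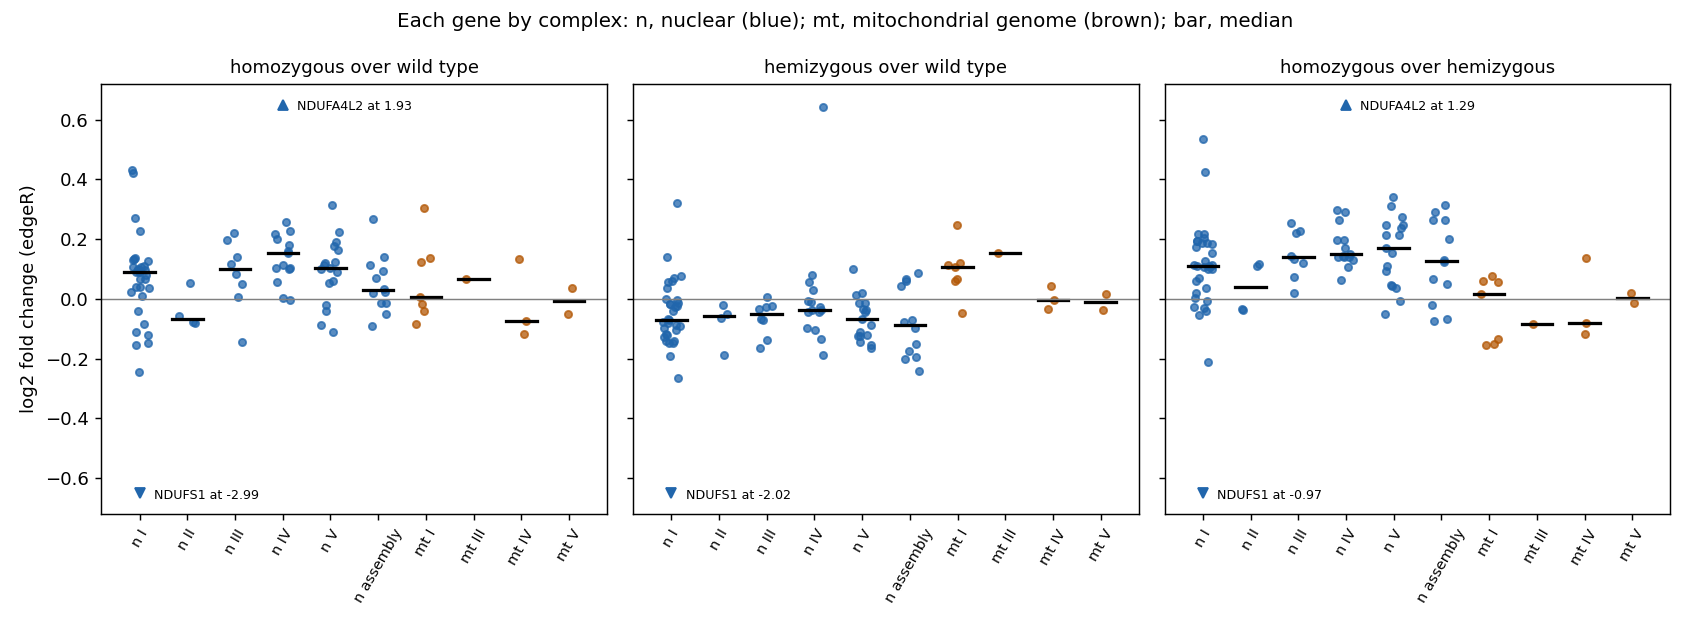
log2 fold change of each gene by edgeR in the 3 comparisons, with nuclear genes in blue, mitochondrial genes in brown and a bar at each median. Points beyond the axis are drawn as named triangles at its edge; apart from NDUFS1 and NDUFA4L2, the genes lie between -0.26 and 0.54.

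Complex by complex, the genotypes overlapped for most genes at the catalytic centres. NDUFV1, which binds FMN and takes electrons from NADH, had 113 and 119 CPM in homozygous and 88.6 and 120 CPM in hemizygous cells, against 106 and 116 CPM in wild-type cells. NDUFS7, the core subunit that hands electrons on towards quinone, had 47.0 and 52.6 CPM in homozygous and 34.3 and 53.1 CPM in hemizygous cells, against 41.5 and 51.1 CPM in wild-type cells. In both genes hemizygous 1 was the lowest library. NDUFB8, an accessory subunit often used as a protein marker of complex I assembly, had 7.73 and 10.5 CPM in homozygous and 5.74 and 6.79 CPM in hemizygous cells, against 7.54 and 7.52 CPM in wild-type cells. It had the largest log2 fold change between the edited genotypes after NDUFA4L2 and NDUFS1, 0.54 ± 0.23 (SE), with an adjusted p of 1.00 by edgeR's quasi-likelihood test. Of its exonic bases 48.5% are also annotated to AL133352.1 or HIF1AN, and its lowest library had 220 counts. The part of this overlap in its values was not tested.

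Complex II also serves the citric acid cycle. SDHB, its iron-sulfur subunit, had 70.5 and 76.0 CPM in homozygous and 67.1 and 68.2 CPM in hemizygous cells, against 75.1 and 66.2 CPM in wild-type cells. The membrane anchors SDHC and SDHD stayed within 52.5 to 60.1 and 58.3 to 70.4 CPM over all libraries. In complex III the core protein UQCRC1 had 195 and 203 CPM in homozygous and 175 and 203 CPM in hemizygous cells, against 185 and 212 CPM in wild-type cells. UQCRH, the hinge protein whose promoter is printed above, had 239 and 304 CPM in homozygous and 229 and 266 CPM in hemizygous cells, against 242 and 251 CPM in wild-type cells. Its near-identical copy UQCRHL held 15.3 to 16.3% of their summed counts in every library, and reads of such a pair may be split by the counting, so both are uncertain.

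In complex IV all 15 nuclear genes were lower in hemizygous 1 than their own mean over the 6 libraries, and all 15 were higher in homozygous 2. COX4I1, the largest nuclear subunit, had 242 and 274 CPM in homozygous and 205 and 263 CPM in hemizygous cells, against 235 and 242 CPM in wild-type cells. COX5B, a zinc-binding subunit, had 96.5 and 109 CPM in homozygous and 74.4 and 105 CPM in hemizygous cells, against 87.2 and 97.8 CPM in wild-type cells. COX5A had 129 and 136 CPM in homozygous and 121 and 126 CPM in hemizygous cells, against 130 and 135 CPM in wild-type cells. For COX4I1 and COX5B the libraries of 1 genotype lay farther apart than the genotype means. COX6C followed with 91.2 and 116 CPM in homozygous and 84.5 and 96.6 CPM in hemizygous cells, against 94.4 and 91.3 CPM in wild-type cells.

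In the ATP synthase the catalytic head had the highest CPM, a scale not corrected for length. ATP5F1B, the catalytic beta subunit, had 839 and 796 CPM in homozygous and 905 and 788 CPM in hemizygous cells, against 920 and 816 CPM in wild-type cells. ATP5F1A, the alpha subunit, had 803 and 783 CPM in homozygous and 782 and 811 CPM in hemizygous cells, against 813 and 796 CPM in wild-type cells. It was among the flattest genes, with log2 fold changes of -0.020, -0.014 and -0.0068 in the 3 comparisons. ATP5F1C, the rotating gamma subunit, had 140 and 162 CPM in homozygous and 134 and 149 CPM in hemizygous cells, against 140 and 149 CPM in wild-type cells. The 3 genes that encode the same mature c subunit of the rotor ring had 168 to 221 CPM for ATP5MC2, 166 to 197 CPM for ATP5MC3 and 55.5 to 77.1 CPM for ATP5MC1. ATP5MC1 was the lowest in every library, and ATP5MC2 was above ATP5MC3 in all but wild type 1. ATP5PO, which joins the stalk to the catalytic head, had 32.7 and 40.6 CPM in homozygous and 27.1 and 30.7 CPM in hemizygous cells, against 27.7 and 37.1 CPM in wild-type cells.

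The 12 assembly factors selected by symbol had medians of 0.028 for homozygous against wild type, -0.087 for hemizygous against wild type and 0.13 for homozygous against hemizygous. NDUFAF7, a methyltransferase that acts in complex I assembly, had 80.3 and 98.8 CPM in homozygous and 66.0 and 89.8 CPM in hemizygous cells, against 75.5 and 73.3 CPM in wild-type cells. SDHAF4, which acts on SDHA during complex II assembly, had 17.6 and 24.7 CPM in homozygous and 14.1 and 21.0 CPM in hemizygous cells, against 18.9 and 21.4 CPM in wild-type cells. Its replicate 1 library was the lower in each genotype.

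**Figure D3:**
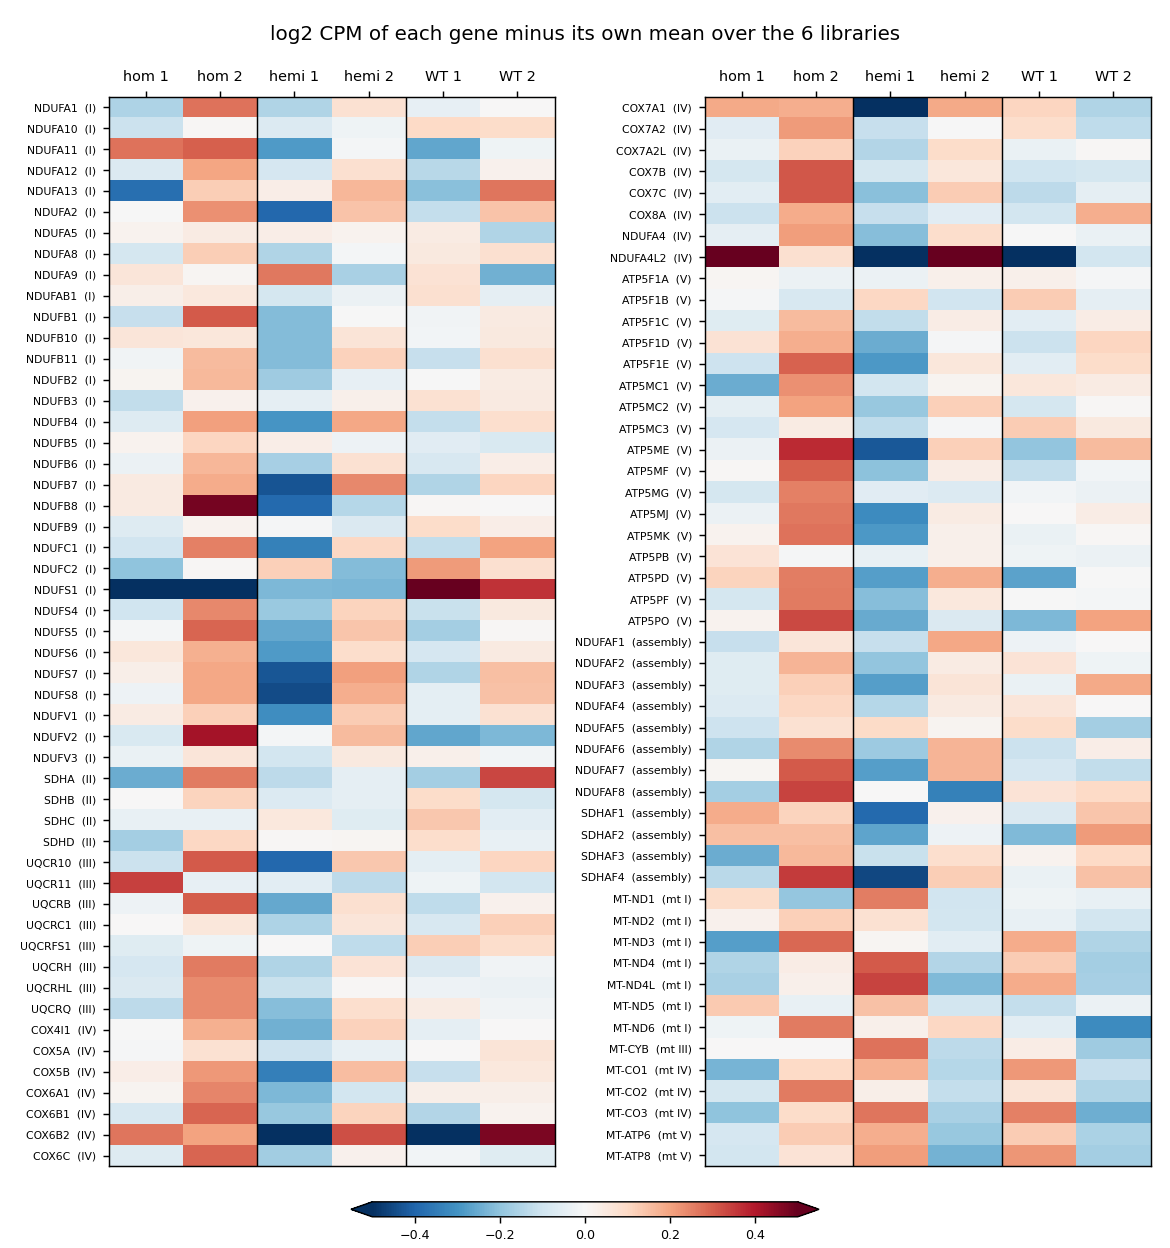
log2 CPM of each gene shown minus its own mean over the 6 libraries (red higher, blue lower), in the order homozygous (hom), hemizygous (hemi) and wild type (WT), with the complex in brackets and mt for the mitochondrial genome. Homozygous 2 was the highest library for 58 of 89 nuclear genes and hemizygous 1 the lowest for 59.

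Read by library, most nuclear genes moved together, though in complex II hemizygous 1 was the lowest library for 0 of 4 genes. Homozygous 2 was the highest library for 58 of the 89 nuclear genes, with a median deviation of 0.19 (log2) from each gene's own mean, and hemizygous 1 the lowest for 59, with a median of -0.18. Over all 16199 genes these libraries were the highest for 3316 and the lowest for 4046. The mitochondrial genes were highest in hemizygous 1 for 7 of 13, and all 13 were above their own mean there. In hemizygous 1 the genomes thus deviated in opposite directions (0.18 for mitochondrial and -0.18 for nuclear genes), whereas in homozygous 2 they deviated in the same direction (0.090 and 0.19). Cytosolic ribosomal protein genes, a list of 84 short and abundant mRNAs, had summed shares of 6.07 and 7.04% in homozygous and 4.71 and 6.70% in hemizygous cells, against 5.42 and 6.28% in wild-type cells. Their highest and lowest libraries were the same as those of the nuclear genes of the chain, and their part in the result was not tested.

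The difference between libraries 1 and 2 was itself examined, a comparison chosen after the data were seen. Nuclear genes were lower in library 1 for 76 of 89 in homozygous cells (median log2 difference -0.21), 76 of 89 in hemizygous cells (-0.23) and 54 of 89 in wild-type cells (-0.043). In all 3 genotypes 48 of the 89 (53.9%) were lower in library 1 and 5 (5.62%) higher, against 28.3 and 29.9% of all genes. Mitochondrial genes were lower in library 1 for 11 of 13 in homozygous cells (-0.19) but higher for 12 of 13 in hemizygous cells (0.35) and in wild-type cells (0.28). No mitochondrial gene was lower in library 1 in all 3 genotypes, and 1 was higher.

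A term for replicate 1 against replicate 2, added to the edgeR fit, called 12 of the 102 genes, all nuclear and all lower in replicate 1, where 20.5% of all genes were called and 8.5% were called lower. The 12 (13.5% of the nuclear genes) were ATP5F1E, ATP5ME and ATP5PO of the ATP synthase, NDUFA2, NDUFB4, NDUFC1, NDUFS5 and NDUFS7 of complex I, UQCR10 and UQCRB of complex III, COX6B1 of complex IV, and SDHAF4. ATP5ME, a small membrane subunit, had 79.7 and 105 CPM in homozygous and 60.7 and 88.5 CPM in hemizygous cells, against 71.1 and 91.0 CPM in wild-type cells. Its log2 difference was -0.43 ± 0.077 (SE, adjusted p = 0.0162, edgeR quasi-likelihood test). The fit with this term left 2 residual degrees of freedom. It treats libraries of the same number as belonging together across genotypes, which the labels do not state. NDUFB4, whose NRF1 element is printed above, had 79.0 and 95.2 CPM in homozygous and 67.3 and 94.5 CPM in hemizygous cells, against 76.0 and 87.6 CPM in wild-type cells, with a difference of -0.32 ± 0.084. In the same fit 0 of the 13 mitochondrial genes were called, and 0 had an unadjusted p under 0.05. That held for 36 of the 89 nuclear genes and for 6255 of all 16199 genes, a similar share.

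The size of the replicate difference went with coding length. In homozygous cells the median log2 difference, library 1 minus library 2, was -0.27 for the 52 nuclear genes with a coding length under 500 nt, -0.17 for the 25 of 500 to 999 nt and -0.086 for the 12 of 1000 nt or more. In hemizygous cells these medians were -0.24, -0.24 and -0.069, and in wild-type cells -0.062, -0.047 and 0.039. Over all 13273 nuclear genes with a coding length, the medians were -0.17, -0.043 and 0.082 in homozygous, -0.16, -0.069 and 0.078 in hemizygous and -0.026, 0.00069 and 0.049 in wild-type cells. Short genes had the lower medians across the table, and in each length class the median of the chain lay below that of all nuclear genes. Spearman's rho with coding length was 0.38, 0.25 and 0.15 over the 89 genes in homozygous, hemizygous and wild-type cells, a description across genes that share the same libraries. Of the mitochondrial genes, the shortest, MT-ATP8, had a difference of -0.16 in homozygous, 0.44 in hemizygous and 0.39 in wild-type cells, and the longest, MT-ND5, one of 0.17, 0.24 and -0.091.

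**Figure D4:**
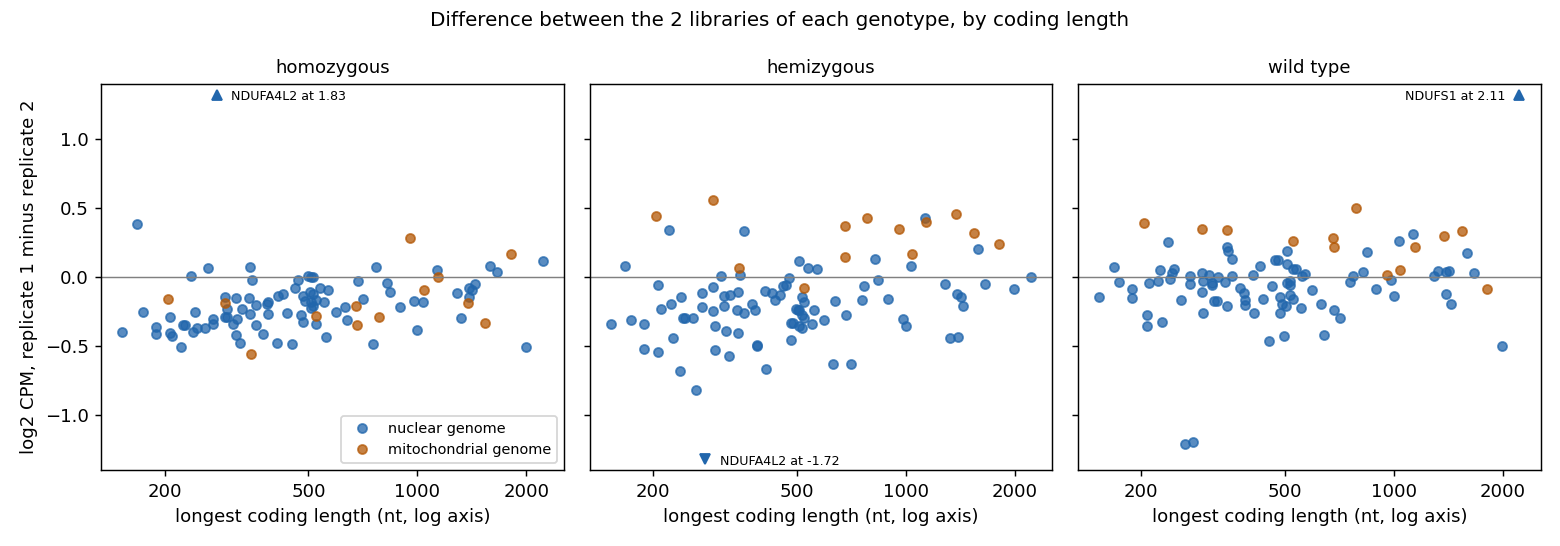
log2 CPM of library 1 minus library 2 in each genotype against the longest coding length of each gene (nt, log axis), nuclear genes in blue and mitochondrial genes in brown. Short nuclear genes lie mostly below 0 in homozygous and hemizygous cells, with UQCR11 above 0 in both, while mitochondrial genes lie mostly above 0 in hemizygous and wild-type cells; values beyond the axis are named triangles.

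NDUFS1, the largest iron-sulfur subunit of complex I, had the largest fold change of the chain and was also its least counted gene per kilobase. It had 0.859 and 0.788 CPM in homozygous and 1.62 and 1.61 CPM in hemizygous cells, against 10.6 and 2.43 CPM in wild-type cells, from 39 and 32, 62 and 85, and 551 and 95 counts. Wild type 1 stood apart from all other libraries, and the order homozygous, hemizygous, wild type held without overlap. The log2 fold change was -2.99 ± 0.67 (SE) for homozygous against wild type (unadjusted p = 0.00335, adjusted p = 1.00) and -2.02 ± 0.63 for hemizygous against wild type (unadjusted p = 0.0165, adjusted p = 1.00) by edgeR's quasi-likelihood test. DESeq2 gave an adjusted p of 0.0158 and 0.830. Without wild type 1 the fold changes were -1.55 and -0.58, so that 1 library carried much of the difference. For homozygous against hemizygous the log2 fold change was -0.97 ± 0.66.

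NDUFS1 lies on chromosome 2, 206114817 to 206159603, minus strand (GRCh38, GENCODE release 29), and 11.7% of its exonic bases are also annotated to EEF1B2, GCSHP3 or AC007383.3. EEF1B2, an elongation factor subunit, had 2.25 and 2.31 CPM in homozygous and 3.99 and 2.56 CPM in hemizygous cells, against 4.69 and 65.0 CPM in wild-type cells. The neighbours were thus high in different wild-type libraries, NDUFS1 in wild type 1 and EEF1B2 in wild type 2. Reads from overlapping genes cannot be told apart in unstranded libraries, and the part of the overlap in these values was not tested.

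Of 77 nuclear subunit genes, 9 were counted more than 10 times below the median of their complex per kilobase: NDUFS1, NDUFA13, NDUFA9, NDUFV2 and NDUFA11 of complex I, SDHA, and NDUFA4L2, COX6B2 and COX7A1 of complex IV. NDUFS1 averaged 0.241 CPM per kilobase of exon and SDHA, the flavoprotein that oxidises succinate, 0.860, where the nuclear medians of their complexes were 20.7 and 13.5. Exons of other annotated genes overlapped 7 of the 9 and 35 of the other 68. With genes without overlap included, the median overlapped part of the exonic bases was 11.7% over the 9 and 0.0555% over the 68. Large overlaps also occurred among the 68, as in ATP5ME (61.6%) and NDUFS7 (49.1%). SDHA had no such overlap, but 3 of its pseudogenes are in the table, and the sources used here do not say how reads that match several places were counted. The lengths merged all annotated exons, 12268 bp for NDUFS1 with a longest coding length of 2223 nt, so the list of 9 depends on them. The low levels of these genes are therefore uncertain as levels of the mRNA.

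Several complex IV subunits have isoform genes that are weakly expressed here. NDUFA4L2, the hypoxia-induced paralogue of the complex IV subunit NDUFA4, had 3.70 and 1.01 CPM in homozygous and 0.417 and 1.48 CPM in hemizygous cells, against 0.366 and 0.895 CPM in wild-type cells. Homozygous 1 stood alone, and the log2 fold change of 1.93 ± 0.83 (SE) for homozygous against wild type had an unadjusted p of 0.0559 and an adjusted p of 1.00 by edgeR's quasi-likelihood test. NDUFA4L2 made up 1.86% of the summed counts of the pair in homozygous 1 and 0.182 to 0.688% in the other 5 libraries, outside their 95% Wilson intervals. BNIP3, a hypoxia-induced mitophagy receptor, was also highest in homozygous 1, with 257 and 105 CPM in homozygous and 55.9 and 120 CPM in hemizygous cells, against 60.8 and 90.3 CPM in wild-type cells. The 12 measured genes of the hypoxia list, out of 14, summed to 0.199 and 0.105% of the counts in homozygous and 0.102 and 0.113% in hemizygous cells, against 0.106 and 0.108% in wild-type cells. Their median log2 fold change was 0.29 for homozygous against wild type, with 11 of 12 above 0 and 0 called by edgeR. ADM alone lay below 0 (log2 fold change -1.06 ± 0.55 SE). It had 15.4 and 7.95 CPM in homozygous and 24.4 and 9.20 CPM in hemizygous cells, against 31.9 and 16.8 CPM in wild-type cells. The part of the hypoxia list in the NDUFA4L2 value was not tested.

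COX6B2, the testis isoform of COX6B1, had 5.49 and 5.24 CPM in homozygous and 3.21 and 5.69 CPM in hemizygous cells, against 2.70 and 6.32 CPM in wild-type cells. It took 4.48 and 3.35% of the counts of the pair in homozygous and 2.88 and 4.10% in hemizygous cells, against 2.36 and 4.81% in wild-type cells. Its low libraries were hemizygous 1 and wild type 1. COX7A1, the heart and muscle isoform, had 2.20 and 2.19 CPM in homozygous and 1.36 and 2.20 CPM in hemizygous cells, against 2.08 and 1.74 CPM in wild-type cells, 1.34 to 2.08% of its pair with COX7A2. The ubiquitous isoforms COX6B1 and COX7A2 had 108 to 151 and 98.9 to 125 CPM.

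**Figure D5:**
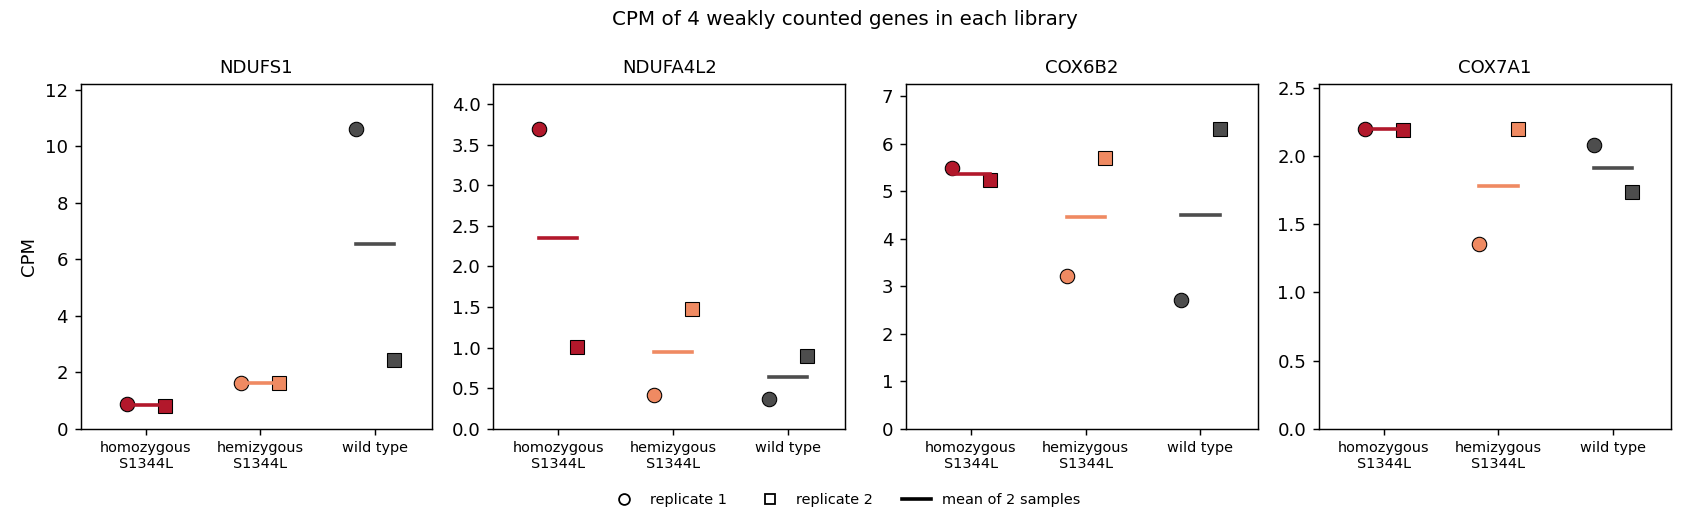
CPM of 4 weakly counted genes in each library, with circles for replicate 1, squares for replicate 2 and bars for the mean of 2 samples. NDUFS1 was high in wild type 1 alone (10.6 CPM) and NDUFA4L2 in homozygous 1 alone (3.70 CPM).

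Other genes that build or supply the chain were taken from lists by function, and edgeR called none of them in any comparison of genotypes (0% of all genes). The list of 43 assembly and insertion factors outside the symbols above had medians of 0.013 for homozygous against wild type, -0.025 for hemizygous against wild type and 0.056 for homozygous against hemizygous. ACAD9, a complex I assembly factor, had 24.5 and 22.2 CPM in homozygous and 28.0 and 20.9 CPM in hemizygous cells, against 30.8 and 26.3 CPM in wild-type cells. The 17 electron carrier genes, for coenzyme Q, cytochrome c and the electron-transfer flavoproteins, had medians of 0.020, 0.017 and 0.029 in the same order, and the 18 citric acid cycle genes -0.060, -0.013 and -0.022.

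Regulators of the nuclear genes, 12 in all, had medians of -0.088 for homozygous against wild type, -0.0040 for hemizygous against wild type and -0.063 for homozygous against hemizygous, with 9 of 12 below 0 in the first. NRF1, whose element is shown above, had 21.1 and 18.9 CPM in homozygous and 18.2 and 19.9 CPM in hemizygous cells, against 22.2 and 20.7 CPM in wild-type cells. The 26 genes of mitochondrial transcription and RNA processing had medians of 0.014, 0.011 and 0.016, and the 11 of mitochondrial DNA replication 0.080, 0.017 and 0.087. TFAM, which packages mitochondrial DNA and starts its transcription, had 109 and 81.6 CPM in homozygous and 142 and 87.8 CPM in hemizygous cells, against 132 and 88.7 CPM in wild-type cells. TFAM was higher in library 1 of every genotype, while the summed share of the mitochondrial mRNAs was higher there in hemizygous and wild-type cells and lower in homozygous cells.

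Differences between genes with and without a promoter element were not tested. The 5 nuclear genes with the NRF1 element had a median log2 fold change of 0.020 for homozygous against wild type and the 69 without it 0.095, and for hemizygous against wild type the medians were -0.020 and -0.068. The 11 genes with the ETS element had 0.14 and the 63 without it 0.089 for homozygous against wild type, and -0.044 and -0.067 for hemizygous against wild type.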

How the data were processed

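RNA-seq counts of 6 samples were analysed, 2 per genotype, grouped by their titles. The values deposited by the authors are unnormalized whole-number read counts for each gene. Per the labels' protocols the libraries came from a TruSeq RNA kit (v2), which does not mark strand. The submitters' processing notes name cutadapt, HISAT2 and hg38, without versions. The program and annotation used for counting: not given in the sources used here.

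From the counts, edgeR 4.0.16 (R 4.3.3) was run on all 6 samples with TMM scaling, filterByExpr (0 genes removed), the quasi-likelihood test, 3 residual degrees of freedom and Benjamini-Hochberg adjustment over 16199 genes at 0.05, after a test on simulated data. Alternatives were DESeq2 1.42.0, limma-voom 3.58.1, other scalings and filters, the 2 genotypes alone, a replicate block and each library left out. No 2 libraries were copies (chi-square per degree of freedom 11.5 to 97.4). Standard errors (SE) are the fold change divided by the square root of the F statistic. Levels per kilobase used total counts without TMM and the merged length of all annotated exons of a gene. The sum over a genome's genes and its ratio had no test. Log2 differences between libraries used a prior count of 2. Exon overlaps, lengths and coding lengths came from GENCODE release 29 (GRCh38), and promoters from RefSeq. Python 3.11.15, pandas 2.3.3 and matplotlib 3.10.9 were used.

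The genes, lists and comparisons were chosen with earlier results of these data known. Named were all mitochondrial genes, fixed catalytic subunits and isoforms, any gene called by edgeR or DESeq2, the 5 nuclear genes with the largest positive and negative fold change per comparison, and the 5 with the largest replicate difference (mean CPM of at least 1). Of each other list, the genes with the largest and smallest fold change could be named. NDUFAF7, UQCRH, NDUFB4, UQCRHL, EEF1B2, MT-RNR1 and the genes called between replicates were named after their values were seen. A member of the fixed catalytic list is not reported here.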

Additional observations from a re-analysis of the deposited data

Results flagged for a closer look

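The share of counts from the mitochondrial genome, replicate 1 minus replicate 2, was -1.21 percentage points in homozygous and 1.10 in hemizygous cells, against 0.933 in wild-type cells, so it ran the opposite way in homozygous cells. The log2 ratio of mitochondrial to nuclear counts, replicate 1 minus replicate 2, was -0.050 in homozygous and 0.51 in hemizygous cells, against 0.31 in wild-type cells, again with the opposite sign in homozygous cells. Each value rests on 1 library against 1, and the difference between genotypes was not tested.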

How the results depend on the processing

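edgeR called 0 of all genes in each comparison, and 0 of the 102 genes of the chain. DESeq2 called 10 genes for homozygous against wild type, of which 1 (NDUFS1) belongs to the chain, 7 for hemizygous against wild type and 10 for homozygous against hemizygous. With the replicate number as a block, edgeR called 0, 1 and 1 genes in the same order, none of the chain. DESeq2 with the replicate block, chosen after seeing the data, called 126, 23 and 24, of the chain 1 (NDUFS1, homozygous against wild type). The correlations of deviations between samples of the same number were 0.741 (hemizygous and wild type), 0.357 (homozygous and wild type) and 0.476 (homozygous and hemizygous) over all genes, and 0.602, -0.16 and -0.25 over the 102. The labels do not say what the number marks, and only 2 numbers exist. Leaving out 1 library gave 0 to 1, 0 to 2 and 0 to 3 called genes in the same order, and 0 of the chain each time. The mitochondrial-to-nuclear log2 ratio then differed by -0.22 to 0.090 for homozygous against wild type, -0.17 to 0.33 for hemizygous against wild type and -0.39 to 0.11 for homozygous against hemizygous, and the mitochondrial median of the last comparison by -0.22 to 0.13. The nuclear medians ranged from -0.026 to 0.19, -0.17 to 0.054 and 0.0015 to 0.26, and the mitochondrial medians of the first 2 comparisons from -0.085 to 0.17 and -0.087 to 0.21. The cause of these moves was not tested. Other scalings, filters and limma-voom kept every count of calls at 0 and moved no median by more than the SD between replicates. Depth did not limit the sums, whose counting error was small. NDUFS1 and NDUFA4L2 had as few as 32 and 16 counts in a library, so their counting error was relatively larger. Why these 2 genes were counted so little was not tested.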
